A study of Mus musculus with 6 samples.

Results

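The baseline transcriptome of vector control 4T1 cells was described from 3 RNA-seq libraries, all those labelled vector control among the 6 libraries of the series. The other 3, from ATM KO cells, were not used. 4T1 is a transplantable mammary carcinoma line from a mouse of strain Balb/c, and the samples are labelled as tumor cells of breast cancer source and carry the genotype vector control. The labels name no vector, treatment, passage or time, and do not say whether the libraries came from separate cultures or whether the vector control cells are 1 clone, so the spread between libraries may be technical. Total RNA was extracted with a column kit and libraries were made by an Illumina protocol. The line is widely used as a model of metastatic triple-negative breast cancer because it spreads from the mammary fat pad to lung, liver and bone and draws neutrophils and other myeloid cells into its host through secreted factors. The series title places these cells in vitro, so transcripts of immune, stromal and endothelial cells serve as a check of what the libraries contain.

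The libraries held 29500267, 30042957 and 27264975 reads on the listed genes for vector controls 1, 2 and 3. Values are normalised read counts, that is, reads divided by 1 factor per library, and 1 read was worth 0.973, 0.967 and 1.05 of them. Where genes are compared with each other, the value was divided by the length of the gene's merged exons and scaled so that the listed genes sum to 1000000, and this is called the level. Means are given ± SD (n = 3), or as 3 values in the order of libraries 1, 2 and 3. The files list 13405 genes, and a gene that is not among them is called not listed; the rule by which genes were listed was not given in the sources used here.

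Library 1 stood apart from the other pair, and every mean below carries this difference. Across the 12034 genes with a mean value of at least 10, the correlation of log2(value + 1) was 0.997 between libraries 2 and 3 and 0.910 between library 1 and each of them. The biological coefficient of variation, the spread beyond counting error, was 2.50% for libraries 2 and 3, 49.6% for libraries 1 and 2 and 49.6% for libraries 1 and 3. The difference between libraries 2 and 3 passed the 5% limit of a chi-square test on their reads in 10.7% of genes, where counting error alone gives 5%. Libraries 2 and 3 therefore differed little beyond counting error, and were kept as separate samples; the 3 libraries may hold fewer than 3 independent ones. A 2-fold difference was found in 3439 genes (28.6%) between libraries 1 and 2, in 3494 (29%) between libraries 1 and 3 and in 82 (0.681%) between libraries 2 and 3. An SD over 3 libraries is in most genes the distance of library 1 from a closely matched pair.

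**Figure D1:**
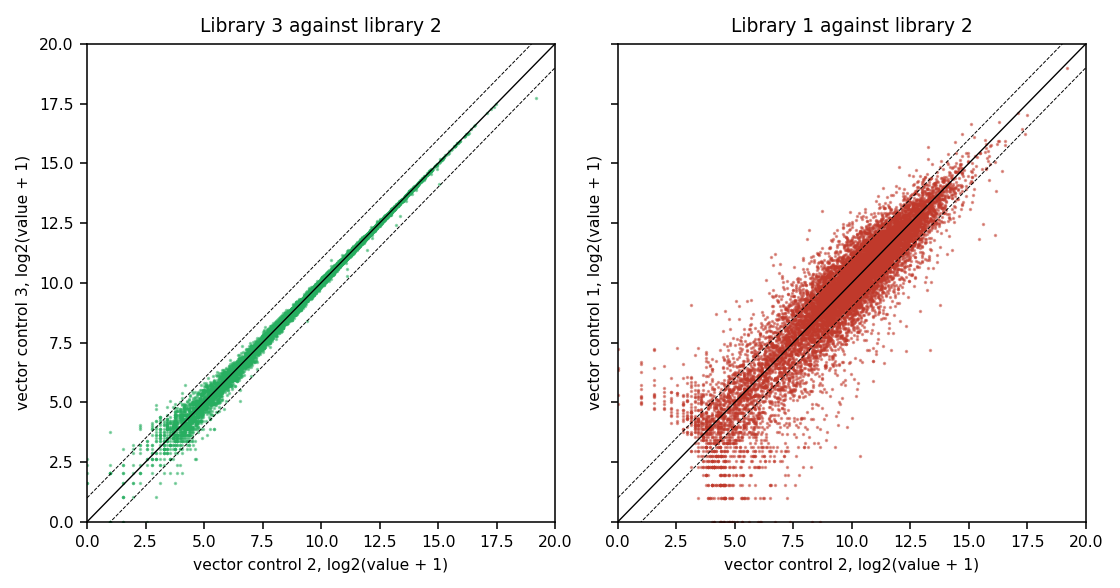
Each point is 1 of the 12034 genes with a mean value of at least 10, with library 2 on the x axis of both panels and library 3 (left) or library 1 (right) on the y axis, all as log2(normalised count + 1). The solid line marks equal values and the dashed lines a 2-fold difference: 82 genes were at least 2-fold apart between libraries 2 and 3, and 3439 between libraries 1 and 2.

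Of the 13405 genes, 12068 were coding and 13249 had an exon length. A level of at least 1 was reached by 11697 genes, of at least 10 by 8971, of at least 100 by 2352 and of at least 1000 by 75, and the median level was 26.4. The 10 highest genes of the mean took 8.86 ± 1.60% of the summed level, the 100 highest 22.9 ± 1.61% and the 1000 highest 53.3 ± 1.51%. The listed genes include 37 with 0 reads in all 3 libraries, among them the basal keratins Krt5 and Krt6a, the germ cell RNA-binding gene Dazl and the sphingosine receptor gene S1pr1. A count of 0 allows up to 3 reads, or a value of 2.92, 2.90 and 3.15.

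The highest level belonged to RP23-81C12.3 (ENSMUSG00000098178, chromosome 17, 39846958 to 39848788, plus strand, GRCm38), which RefSeq names Rn18s-rs5, an 18S ribosomal RNA related sequence. It held 524103, 596761 and 215975 normalised counts, or 1.83%, 2.05% and 0.754% of reads, lowest in library 3. The highest coding gene was Lgals1 (ENSMUSG00000068220, chromosome 15, 78926725 to 78930465, plus strand), which encodes the secreted lectin galectin-1, at a level of 8916 ± 256. Eef2, the translocation factor of translation, followed at a level of 7311 ± 1386 and the cytosolic chaperone gene Hsp90ab1 at 6868 ± 170.1. These 3 coding genes ranked 2 to 4 of 13249, and the levels of Eef2 and Hsp90ab1 differed by less than the SD of Eef2.

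The rest of the 20 highest genes fell into a few classes. Mitochondrial transcripts were mt-Nd1, mt-Co1 and mt-Cytb, subunits of respiratory complexes I, IV and III, at levels of 6457 ± 4435, 3256 ± 715 and 2785 ± 1247. Translation gave Eef1a1 and the ribosomal protein genes Rplp1, Rpl4, Rps15 and Rpl8, at levels between 2946 ± 67.1 for Rpl8 and 5964 ± 1018 for Rplp1. The cytoskeleton gave Actb, Krt18 and the beta-tubulin gene Tubb5, with Actb at a level of 4807 ± 921. H1f0, the linker histone of slowly dividing and differentiated cells, stood at a level of 4232 ± 1617, and Scd2, a stearoyl-CoA desaturase of fatty acid synthesis, at 3728 ± 1485. Spp1, the secreted phosphoprotein osteopontin, and S100a4, a calcium-binding protein linked to metastasis, complete the coding genes of the list. Gm23935 (a small gene of 57 bases) shared all of its 50-base words with another gene, so its level is uncertain. Reads of Rplp1, Eef1a1, mt-Co1, Rps15 and S100a4 can also be shared with copies, since 60%, 39.4%, 51.1%, 30.3% and 47.4% of their 50-base words occur elsewhere among annotated transcripts.

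**Figure D2:**
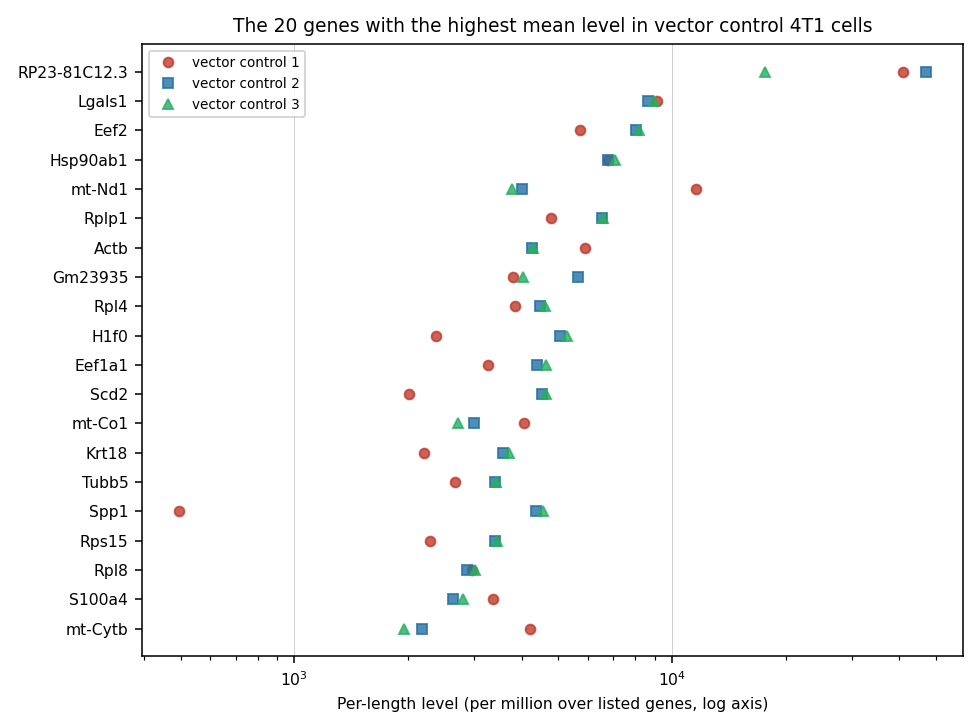
The 20 genes with the highest mean level are shown on a log axis in parts per 1000000 of the summed level, with 1 marker per library. Spp1 and mt-Nd1 have library 1 farthest from the other pair, and RP23-81C12.3 has library 3 lowest.

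Gapdh, often used as a reference gene, was not abundant in these files. It had 305, 336 and 389 normalised counts and ranked 8610 by level, while Actb had 109895, 79016 and 77006. Gm13394, a processed pseudogene of Gapdh (ENSMUSG00000083773, chromosome 2, 28933610 to 28934609, minus strand), had 9247, 21671 and 20442. Of its 981 stretches of 20 bases, 961 (98.0%) also occur in Gapdh, and Gapdh summed with its 20 listed copies gave 9733, 22334 and 21161. Values of genes with near-identical copies are thus uncertain here, and 1019 genes share at least 20% of their 50-base words with another gene.

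The cells carried keratins of simple epithelium. Krt18, which pairs with Krt8 in the filaments of luminal epithelium, had 22139, 35566 and 35702 normalised counts and ranked 14 by level. Krt8 had 8117, 11457 and 11336 and shares 26.9% of its 50-base words with other transcripts, so its count is less certain. Krt19 stood at 2913, 14139 and 13871 and Krt7 at 23598, 18456 and 18566, so that library 1 was the lowest of the 3 for Krt8, Krt18 and Krt19 and the highest for Krt7. Keratins of basal and stratified epithelium were scarce: of 7 on the list 6 were listed, 2 of them at 0 in every library, and only Krt14 (149.9, 684 and 654) and Krt16 had a mean of at least 10. The simple keratins together took 0.357, 0.591 and 0.609% of the summed level and the basal ones 0.00142, 0.00577 and 0.00592%.

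Epithelial adhesion genes were abundant. Cdh1, which encodes E-cadherin, had 17494, 17512 and 16971 normalised counts, a coefficient of variation of 1.77%, and ranked 193 by level. Epcam had 6116, 17513 and 17180.4 and ranked 85 by mean level, and the tight junction gene Cldn4 had 8863, 11134 and 11458. Of the 34 epithelial adhesion, junction and fate genes on the list, 31 were listed, 30 had a mean of at least 10 and 15 a level of at least 100.

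Some mesenchymal genes were present beside them and others were not listed. S100a4, Fn1 and Axl led the list, with Fn1, which encodes fibronectin, at 26326, 87794 and 87802 normalised counts and the receptor kinase gene Axl at 28569, 24105 and 24204. Vim, which encodes vimentin, had 1067, 2317 and 2385 and ranked 3871 by level. Among transcription factors of the epithelial-mesenchymal transition, Snai1 had 421, 711 and 694. Twist1 had 263, 451 and 512, and both were lowest in library 1. Cdh2, which encodes N-cadherin, Zeb1, Snai2, Twist2, Prrx1 and Lox were not listed, leaving 12 of 18.

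Of the receptors that class breast cancers, Erbb2 was the most abundant. Erbb2 had 3425, 5104 and 4962 normalised counts (rank 1763 by level), Erbb3 2114, 4885 and 4842 and Egfr 41.8, 84.2 and 87.2, and Erbb4 was not listed. Esr1, which encodes estrogen receptor alpha, stood at 309, 904 and 873 and ranked 9486 by level, at 7.45 ± 3.64. Pgr and Prlr, the receptors for progesterone and prolactin, were not listed. Gata3, a luminal transcription factor, had 1533, 3909 and 3747. Milk genes were not listed apart from Btn1a1 (414, 54.2 and 74.6), and of 8 myoepithelial markers only Mylk and Trp63 were listed, with no Acta2, Cnn1 or Oxtr.

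Most markers of other cell types were not listed, and a few of the listed ones exceeded the median level of all genes. Of 29 immune markers 7 were listed and 3 had a mean of at least 10: Cd68, Cd14 and Csf1r. Cd68 had 301, 1001 and 1080.1 normalised counts and Csf1r 229, 378 and 387, while Ptprc, Cd3e, Adgre1 and Itgam were not listed. By level Cd68 stood at 92.5 ± 50.9. Fibroblast markers were listed in 4 of 13, led by Pdgfra (129, 474 and 469), with Col1a1 at 9.73, 34.8 and 63.0 and Col3a1, Dcn, Lum and Fap not listed. Endothelial markers were listed in 3 of 12, led by Eng (2093, 2507 and 2501, a level of 85.2 ± 9.82), with Pecam1, Kdr and Tek not listed. Pericyte markers were listed in 2 of 8 and adipocyte markers in 0 of 8. In bulk RNA, fewer cells of a type and less RNA per cell cannot be told apart. The summed level of the immune list was 0.00760, 0.0163 and 0.0178%, of the fibroblast list 0.000279, 0.00104 and 0.00118%, of the endothelial list 0.00768, 0.00990 and 0.0102% and of the pericyte list 5.08e-05, 0.000427 and 0.000435%, each lowest in library 1.

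**Figure D3:**
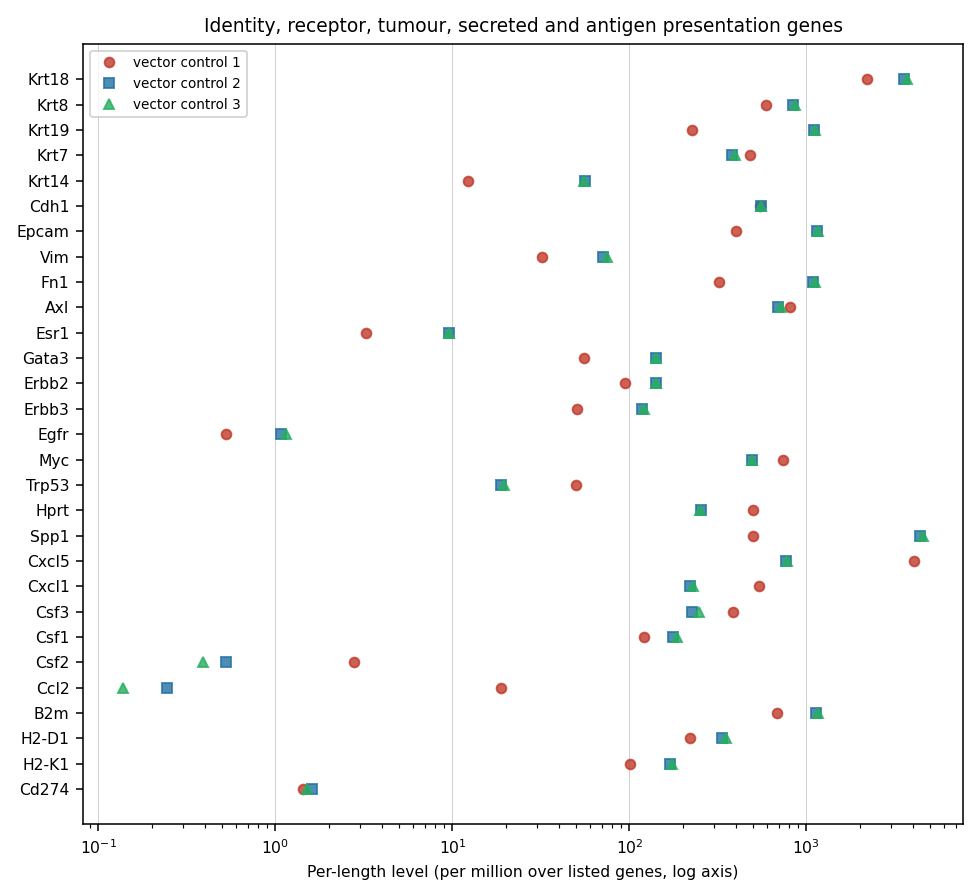
Levels of 29 genes of epithelial identity, receptors, tumour genes, secreted factors and antigen presentation are shown on a log axis in parts per 1000000 of the summed level, with 1 marker per library. Libraries 2 and 3 nearly coincide except for Csf2 and Ccl2, which had 3 reads or fewer in both, and library 1 is lower for Spp1 and higher for Cxcl5.

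Several secreted factors for which 4T1 is known differed widely between library 1 and the other pair. Cxcl5, a chemokine that draws neutrophils through the receptor CXCR2, had 52523, 9909.7 and 9710.2 normalised counts. Cxcl1, which acts on the same receptor, had 7064, 2859 and 2866. Library 1 lay far above the pair for Cxcl5, which ranked 30 by mean level. Csf3, which encodes the granulocyte factor G-CSF, had 3821, 2212 and 2332, and Csf1, the macrophage growth factor, 4482, 6417 and 6568. Csf2, which encodes GM-CSF, had 15.6, 2.90 and 2.10 and Ccl2, a monocyte chemokine, 149.9, 1.93 and 1.05. Spp1 went the other way, with 5709.9, 49885 and 50411. The 13 listed chemokines of 27 took 0.494, 0.137 and 0.141% of the summed level, and Il6 and Tnf were not listed. Mif, an inflammatory cytokine made by most cells, had 1011, 1802 and 1756.

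Of the secreted growth factors, 26 of 36 were listed and 6 had a level of at least 100, led by Wnt7a (4564, 3186 and 3216), Bmp1 and Vegfb. The secreted proteases were led by Prss22 (1107, 4877 and 5099.9), Tmprss11e (9693, 8984 and 8798) and Plau, which encodes urokinase (5450.1, 5646 and 5864). Mmp9, a gelatinase, had 1042, 10568 and 10622 and Mmp13, a collagenase, 45.7, 1197 and 1219, both lowest in library 1. Among protease inhibitors, Wfdc2 had 11029.6, 12954 and 13467 and Timp2, an inhibitor of metalloproteinases, 16624, 16855 and 16743. Timp2 was even, with a coefficient of variation of 0.692%. Matrix genes took 0.460, 1.21 and 1.26% of the summed level.

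Class I antigen presentation genes were transcribed in every library, and most class II genes were not listed. B2m, the light chain of all class I molecules, had 4071, 6757 and 6692 normalised counts, H2-D1 3969, 5922 and 6086 and H2-K1 2075, 3431 and 3437. Tap1, a chain of the peptide transporter, had 9.73, 474 and 436, and the immunoproteasome subunit gene Psmb9 0.973, 38.7 and 22.1. H2-Aa, H2-Ab1 and H2-Eb1 were not listed and H2-DMa, Cd74 and Ciita were. Cd274, which encodes PD-L1, had 36.0, 40.6 and 36.8 and ranked 11287 by level, while Cd47, a signal against phagocytosis, had 6113, 14561 and 14304 and Cd276 3584, 3512 and 3381. The interferon-stimulated genes had a median member level of 7.64, against 26.4 over all genes, and were led by Trim25, Bst2 and Rnf213. Cytosolic nucleic acid sensing genes took 0.0666, 0.0638 and 0.0658% of the summed level, with Trex1, Enpp1 and Tlr9 not listed.

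Oncogenes and tumour suppressors were led by level by Ctnnb1, which encodes beta-catenin and had 30554, 40742 and 41331 normalised counts. Ccnd1, which encodes cyclin D1, had 31239, 25428 and 25647, and its kinase gene Cdk4 had 11068, 13988 and 13841. Myc had 14046, 9221 and 8965 and ranked 187 by level. Trp53, which encodes p53, had 1408, 529 and 528 (rank 6265), highest in library 1, and its target Cdkn1a 247, 1208 and 1236, lowest in library 1. Cdkn2a was not listed. Atm, the kinase gene that the other group of the series targets, had 1978, 1613 and 1519. Xist had 2.92, 2.90 and 3.15, at or under 3 reads per library, and of the germ cell genes 5 of 24 were listed. Of the imprinted genes 7 of 24 were listed, led by Gnas, Igf2r and Snrpn. Malat1, a nuclear long non-coding RNA, had 5845, 13402 and 13346.

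Among the gene lists as drawn, annexins, S100 proteins and galectins took the largest mean share of the summed level, at 2.56 ± 0.169%. In library 1 the 2.38% of these calcium- and sugar-binding proteins lay below the 2.77% of mitochondrially encoded mRNAs and the 2.40% of translation factors. Translation factors took 2.44 ± 0.0512%, actin cytoskeleton genes 1.89 ± 0.0363%, nuclear-encoded respiratory chain subunits 1.67 ± 0.0457% and heat shock chaperones 1.68 ± 0.252%. The large subunit ribosomal proteins took 2.15 ± 0.232% and the small subunit ones 1.13 ± 0.150%. Ribosomal proteins were split over these lists. Their summed share was above that of annexins, S100 proteins and galectins, so the rank of the latter holds only for the lists as drawn. Within the large subunit list, the 27 members that share at least 20% of their words with another gene had a median level of 47.7 and the other 22 a median of 76.6, and within the small subunit list the medians were 14.2 for 15 members and 120.6 for the other 15. Mitochondrially encoded mRNAs, of which 7 of 13 were listed, took 2.77, 1.42 and 1.29%; mt-Co2, mt-Co3, mt-Atp6, mt-Atp8, mt-Nd3 and mt-Nd4l were not listed. Fatty acid synthesis genes, led by Scd2, Fasn and Acly, took 0.433, 0.708 and 0.731%, and Fasn, the fatty acid synthase gene, had 44608, 45256 and 47152 normalised counts. Cholesterol synthesis genes took 0.285 ± 0.00631%, with Hmgcs1 at 10852, 10880 and 10617. Lysosomal genes took 0.547, 0.667 and 0.690%, led by Lamp1, Ctsl and Ctsz.

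The most even genes were chosen as such from 10081 with a mean of at least 100. Slc1a4, an amino acid transporter gene, had a coefficient of variation of 0.170% (1105, 1109 and 1105 normalised counts), Frs2, an adaptor of fibroblast growth factor receptors, 0.292%, Cdc26, a subunit of the anaphase-promoting complex, 0.294%, Clta, a clathrin light chain, 0.322% and Fam134c 0.325%. The highest belonged to Serpinb2 (165%, 542, 7.74 and 10.5), Slc16a6 (153%, 2330.5, 104 and 96.7), Kbtbd8, Aen and Cxcl3. Serpinb2 encodes a plasminogen activator inhibitor and Slc16a6 a transporter of the monocarboxylate family. Over the 12034 genes the median was 24.5% for the 3 libraries and 2.66% for libraries 2 and 3.

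Library 1 differed from both others in many genes and in both directions. It lay at least 2-fold above both in 1398 genes (11.6%) and at least 2-fold below both in 1802 (15%) of 12034. For library 2 these counts were 9 (0.0748%) and 31 (0.258%), and for library 3 they were 8 (0.0665%) and 23 (0.191%). Without a fold, library 1 lay above both others in 47.2% and below both in 48.8% of these genes. The median difference over all genes was -0.02 on the log2 scale against both other libraries. In 18 genes library 1 had 0 reads where both others had at least 20, and no gene (0) had this pattern in library 2 or library 3. With 1 group and no label that sets library 1 apart, no test was made, and the counts describe these 3 libraries. The shares of 11.6% above and 15% below over all genes are those to set beside the list counts that follow. Library 1 also had 0.857% mitochondrial reads against 0.444% and 0.387%, and the summed levels of the immune, fibroblast, endothelial and pericyte marker lists given above were lowest in it, although Ptprc, Col3a1, Pecam1 and Rgs5 were not listed. The part of these differences in the results below was not tested.

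Genes that respond to low oxygen were low in library 1. HIF, the transcription factor stabilised when oxygen is short, binds the core sequence ACGTG and raises genes of glucose uptake, glycolysis, acid export and blood vessel growth. Of 27 HIF target genes beside the glycolytic enzymes with a mean of at least 10, library 1 was at least 2-fold below both others in 23 and above in 1, with median differences of -2.42 and -2.32 against libraries 2 and 3. Their share of the summed level was 0.141, 1.06 and 1.09%. Car9, which encodes the carbonic anhydrase that acidifies the surroundings of hypoxic tumour cells, had 143, 10242 and 10169 normalised counts. Ankrd37 had 37.9, 1171 and 1251, Bnip3, an inducer of mitophagy, 342, 4283 and 4228 and Ndrg1, a stress response gene, 4113, 70323 and 70617. Vegfa, the main angiogenic growth factor, had 759, 4061 and 3792 and Ddit4, an inhibitor of mTORC1, 2674, 20131 and 21293. Adm, which encodes the vessel-dilating peptide adrenomedullin, had 1, 43 and 47 reads. The 1 member above was Pfkfb3, which makes an activator of glycolysis, at 738, 156 and 148.

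Glycolytic enzyme genes were also low in library 1. Of 18, library 1 was at least 2-fold below both others in 12 and above in 1, with medians of -1.36 and -1.37, and they took 0.587, 1.41 and 1.46% of the summed level. Aldoa, the most abundant, had 14776, 72923 and 72978 normalised counts, Pkm 56078, 96821 and 98401 and Ldha 28013, 54485 and 53892. Aldoc had 454, 7685 and 7832, Eno2, the neuronal enolase gene, 58.4, 1909 and 1910.1 and Pfkp, a phosphofructokinase gene, 2278, 12899 and 13261. The member above both was Slc16a1, a lactate and pyruvate transporter gene, at 18081, 9034 and 8942. In all 6 enzymes the values of libraries 2 and 3 lay close together and library 1 lay below both.

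The promoters of the genes farthest below in these lists that have a window and hold ACGTG before the start of transcription are shown to let the matched letters be seen. The windows are the 250 bases before the start, from RefSeq on GRCm38.p6, written 5′ to 3′ on the gene's strand with ACGTG or its reverse complement in capitals, and Bnip3 has 2 overlapping matches. Car9 lies at chr4:43506776-43507025 on the plus strand, with its match 18 bases before the start, Ankrd37 at chr8:45999851-46000100 on the minus strand and Bnip3 at chr7:138909507-138909756 on the minus strand.
Car9: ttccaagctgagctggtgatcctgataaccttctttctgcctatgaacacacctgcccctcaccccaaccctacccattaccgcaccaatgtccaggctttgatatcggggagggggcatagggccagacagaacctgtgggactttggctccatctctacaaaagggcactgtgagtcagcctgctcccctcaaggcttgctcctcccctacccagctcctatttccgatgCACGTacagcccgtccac
Ankrd37: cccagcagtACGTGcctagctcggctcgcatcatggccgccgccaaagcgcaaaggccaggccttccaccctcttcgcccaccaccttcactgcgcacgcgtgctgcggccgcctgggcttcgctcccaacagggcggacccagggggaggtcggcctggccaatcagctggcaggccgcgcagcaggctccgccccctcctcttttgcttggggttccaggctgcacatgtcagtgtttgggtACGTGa
Bnip3: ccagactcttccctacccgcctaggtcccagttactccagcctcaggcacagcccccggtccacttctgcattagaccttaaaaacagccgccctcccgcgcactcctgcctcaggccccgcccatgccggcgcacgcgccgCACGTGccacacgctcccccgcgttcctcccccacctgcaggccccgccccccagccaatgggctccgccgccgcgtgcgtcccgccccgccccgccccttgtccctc

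Over windows of 300 bases, 250 before to 50 after the start, ACGTG was found on either strand in 30.1% of the 8582 genes with a mean of at least 10 that have a window. It was found in 14 of 21 HIF targets (66.7%) and 12 of 18 glycolytic enzyme genes (66.7%), but in 26.96% of the genes at least 2-fold below in library 1 and in 34.7% of those at least 2-fold above. Eno2, the farthest below of the glycolytic genes, and Adm did not hold it in this window. Ndrg1 was not matched to a window, and Aldoc held ACGTG in the 300 bases but not wholly before the start. All of these lay farther below than Bnip3. A match is a description and not a binding site.

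Interferon-stimulated genes and antigen processing genes were also low in library 1. Of 35 interferon-stimulated genes, 22 lay at least 2-fold below both others and 0 above, with medians of -1.42 and -1.35. Oas3, an antiviral enzyme that makes oligoadenylates, had 23.4, 670.4 and 684 normalised counts, Irf7, the factor that amplifies interferon induction, 7.78, 71.6 and 72.5 and Xaf1 3.89, 57.1 and 54.6. The most abundant members differed less, with Trim25 at 3959, 5040 and 5125 and Rnf213 at 6589, 5748 and 5766, the latter highest in library 1. Of 19 class I genes 7 lay at least 2-fold below and 0 above, with medians of -0.73 and -0.73, led by Tap1 and Psmb9, given above, and by Tap2 at 101, 973 and 1009.7. Nucleic acid sensing genes had medians of -0.02 and -0.12, which turned to 0.05 and 0.06 without genes that have close copies. Of 13, 2 lay at least 2-fold below both others and 2 above, near the 15% and 11.6% of all genes. Those below were Ifi204 (703, 1531 and 1512) and the adaptor gene Ticam1 (320.1, 839 and 853). Those above were the adaptor gene Myd88 (1001, 361 and 324) and Mb21d1 (1156, 445 and 402), which encodes the DNA sensor cGAS.

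The interferon response element, searched as GAAANNGAAA on both strands, is shown in capitals in the 250 bases before the start of Oas3 (chr5:120777660-120777909, minus strand) and Ifit1 (chr19:34640639-34640888, plus strand, 5.84, 53.2 and 47.3 normalised counts), the members farthest below among those of both lists that have a window and hold it there. Usp18, Tap2, Rtp4 and Dhx58, all farther below than Ifit1, were not matched to a window. Tap1, the farthest below of both lists, and Psmb9, Xaf1 and Irf7, also farther below than Ifit1, have a window and did not hold the element. Ifit1 encodes an interferon-induced protein that binds foreign RNA.
Oas3: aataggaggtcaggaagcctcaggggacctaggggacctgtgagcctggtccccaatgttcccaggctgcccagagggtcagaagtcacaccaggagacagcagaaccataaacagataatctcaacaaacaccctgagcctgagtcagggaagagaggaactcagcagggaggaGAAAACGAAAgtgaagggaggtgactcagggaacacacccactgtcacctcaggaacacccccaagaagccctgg
Ifit1: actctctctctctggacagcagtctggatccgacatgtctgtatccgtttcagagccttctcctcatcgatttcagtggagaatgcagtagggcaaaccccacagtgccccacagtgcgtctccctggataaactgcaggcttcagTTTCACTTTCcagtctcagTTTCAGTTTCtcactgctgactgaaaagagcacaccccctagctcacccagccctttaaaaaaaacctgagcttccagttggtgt

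This motif was found in 3.64% of the 8582 windows, in 12 of 27 interferon-stimulated genes (44.4%) and in 4 of 15 class I genes (26.7%). Among all genes at least 2-fold below in library 1 it was found in 5.22%.

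Matrix and adhesion genes followed the same direction. Of all genes, 15% lay at least 2-fold below both others and 11.6% above. Of 29 matrix genes 19 lay at least 2-fold below both others and 0 above, with medians of -1.31 and -1.31. Col5a1, a fibrillar collagen chain, had 144, 3246 and 3268 normalised counts, Sparc, a collagen-binding protein gene, 1398, 3469 and 3478 and Fn1 and Spp1 the values above, while Thbs1, which encodes thrombospondin, had 22738, 27765 and 27257. Integrins had medians of -0.72 and -0.74, with 5 of 13 at least 2-fold below and 0 above. Mesenchymal genes had -0.77 and -0.77, with 4 of 12 at least 2-fold below and 2 above, and secreted growth factors -0.73 and -0.75, with 9 of 24 below and 2 above. Fn1 is in both the matrix and the mesenchymal list, and Sparc is also in the latter. Without a fold, 8 mesenchymal genes lay below both others and 4 above, and S100a4 and Axl were highest in library 1. Immediate early genes, the first targets of growth factor signalling, had medians of -0.93 and -0.85, with 9 of 22 at least 2-fold below and 1 above, and Egr1 had 107, 1302 and 1239 and Fos 43.8, 229 and 285. MAPK feedback genes had medians of -0.48 and -0.46, with Dusp6, a phosphatase gene for ERK, at 1145, 4105 and 4114. TGF-beta targets stood at -0.56 and -0.52 and YAP targets at -0.14 and -0.12.

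Ribosome biogenesis genes were the group most raised in library 1. This list of 86 factors that make and export ribosomal subunits was added after the values were seen. Of the 86, 68 lay at least 2-fold above both others and 0 below, and 85 lay above both, the exception being Wdr36 (10531, 11402 and 11189.5), with medians of 1.64 and 1.64. Their share of the summed level was 1.85, 0.708 and 0.748%. Ncl, which encodes nucleolin, had 101357, 34679 and 36814 normalised counts, Ddx21, an RNA helicase gene, 29057, 4180 and 4335, Rrp12 4675, 287 and 286 and Bysl 3678, 269.9 and 270. Npm1, the most abundant by level, had 26325, 24013 and 24637. Where 11.6% of all genes lay at least 2-fold above both others and 15% below, the ribosomal proteins themselves went both ways. Of 49 in the large subunit, 24 lay above both others and 23 below, 8 of them at least 2-fold above and 1 at least 2-fold below, and of 30 in the small subunit 13 lay above and 14 below, with 4 at least 2-fold above and 0 below. Their medians of 0.06 and 0.01 for the large and 0.06 and -0.13 for the small subunit had no stable sign, since without genes that have close copies the large subunit stood at -0.17 and -0.09, and the small subunit at -0.13 against library 2.

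Many ribosome biogenesis genes are targets of MYC, which binds the E-box CACGTG, a word that contains ACGTG. The capitals below mark CACGTG in the 250 bases before the start of Nop2, a ribosomal RNA methyltransferase gene (chr6:125131633-125131882, plus strand, 7189.9, 1180.2 and 1217 normalised counts), and Utp18, a factor of small subunit processing (chr11:93885767-93886016, minus strand, 3899, 853 and 779), the members farthest above among those that have a window and hold it there.
Nop2: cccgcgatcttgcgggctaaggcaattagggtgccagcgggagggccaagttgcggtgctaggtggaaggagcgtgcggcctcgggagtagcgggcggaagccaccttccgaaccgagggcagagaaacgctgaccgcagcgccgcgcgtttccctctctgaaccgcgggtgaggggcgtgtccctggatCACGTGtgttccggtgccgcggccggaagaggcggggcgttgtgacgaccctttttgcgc
Utp18: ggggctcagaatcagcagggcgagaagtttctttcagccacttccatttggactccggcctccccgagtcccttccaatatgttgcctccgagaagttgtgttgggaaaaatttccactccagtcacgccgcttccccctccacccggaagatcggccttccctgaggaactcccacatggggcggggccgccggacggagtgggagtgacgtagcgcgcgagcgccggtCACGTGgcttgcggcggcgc

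CACGTG was found in 13 of 73 ribosome biogenesis windows (17.8%) and in 12.1% of all 8582. Bysl, Heatr1, Mphosph10, Ddx21, Nolc1, Polr1b and Rrp9, all farther above than Utp18, have a window and did not hold it. Rrp12, Rrs1 and Bop1, also farther above, were not matched to a window. It was found in 16.4% of genes at least 2-fold above in library 1 and in 9.49% of those at least 2-fold below. A match is a description and not a binding site. Myc itself was highest in library 1, with differences of 0.61 and 0.65, and a link between Myc and the ribosome biogenesis genes was not tested.

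Other groups were raised in library 1 by less. The shares of all genes at least 2-fold above and below both others were 11.6% and 15%. All 31 constitutive proteasome subunits lay above both others, 8 of them at least 2-fold, with medians of 0.82 and 0.75, and Psmc4 had 3860.1, 1308 and 1290.2 normalised counts. ATF4 targets of the amino acid response had medians of 0.89 and 0.94 with 12 of 25 at least 2-fold above and 1 below, and Mthfd2, a mitochondrial folate enzyme gene, had 6103, 1584 and 1601. Cytosolic tRNA synthetases (0.71 and 0.72, 8 of 20 at least 2-fold above and 0 below) and mitochondrial ribosomal proteins (0.70 and 0.67, 16 of 73 above and 0 below), both lists added after the values were seen, lay in the same direction. The ATF4 and tRNA synthetase lists share members, among them Gars, Wars and Aars, so their counts are not separate. Mitochondrially encoded mRNAs stood at 0.89 and 1.17, with 1 of 7 at least 2-fold above both others and 0 below. That 1 was mt-Nd1, at 77412, 26582 and 24248, while mt-Co1 had 43898.5, 31922 and 28116. In contrast, mt-Nd6, encoded on the other strand, had 5476, 5816 and 5347. Strandedness is not stated, so reads counted for mt-Nd6 may include transcripts of the opposite strand. Chemokines had medians of 1.25 and 1.14 with 5 of 10 at least 2-fold above and 1 below. Heat shock chaperones stood at 0.59 and 0.61, with 3 of 22 at least 2-fold above both others and 0 below. Splicing factors stood at 0.38 and 0.39, with 6 of 33 above and 0 below. Translation factors stood at 0.45 and 0.45, with 6 of 32 above and 1 below. Without a fold, 22 translation factors lay above both others and 9 below. Their share of the summed level was nevertheless lowest in library 1, at 2.40, 2.42 and 2.49%.

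Cell cycle genes split by phase. S phase genes lay above both others in 28 of 36, where 47.2% of all genes did, with 6 at least 2-fold above and 0 below and medians of 0.43 and 0.41, and the cyclin gene Ccne1 had 905, 132 and 154 normalised counts and Rrm2, which makes deoxynucleotides, 10742, 3179 and 3026. G2/M genes lay below both in 35 of 41, where 48.8% of all genes did, with 2 at least 2-fold below and 0 above and medians of -0.44 and -0.40, and Top2a, the mitotic topoisomerase gene, had 34606, 58327 and 58398. Targets of p53 went both ways, with 3 of 22 at least 2-fold above both others and 6 below, where 11.6% and 15% of all genes did. Aen (2153, 92.9 and 104) and Plk2 (9052, 2313 and 2327) were high in library 1 and Cdkn1a was low. Hprt, a purine salvage gene used as a reference, had 4505, 2269 and 2154. Cholesterol synthesis genes stood at 0.01 and 0.04 and nuclear-encoded respiratory subunits at 0.11 and 0.03.

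**Figure D4:**
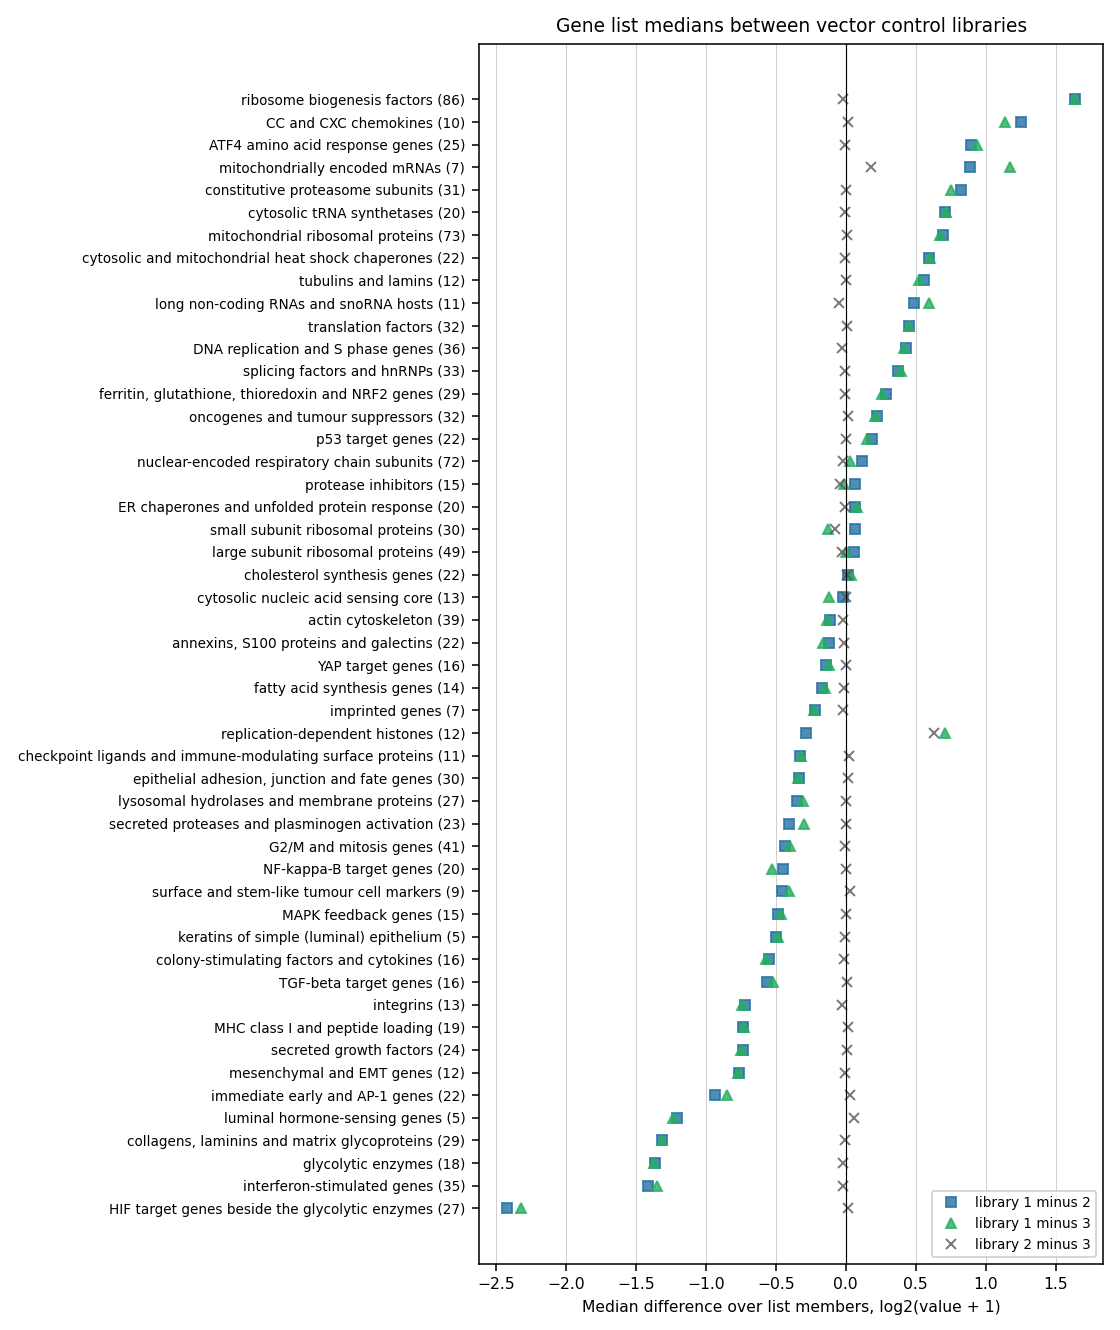
Median differences on the log2(normalised count + 1) scale are shown for the 50 gene lists with at least 5 members of mean at least 10 (number in brackets), for library 1 minus 2, library 1 minus 3 and library 2 minus 3. HIF targets lie lowest and ribosome biogenesis factors highest for library 1, and only replication-dependent histones (0.63) have a median of library 2 minus 3 larger than 0.2 in size.

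The single genes farthest below in library 1 included several with 0 reads there. Nlrp10, an inflammasome-related gene, had 0, 407 and 429 reads, Dmp1, a mineralised matrix protein gene, 0, 320 and 312, and Masp1, a protease gene of the complement system, 0, 167 and 147. Mboat2, Plekhg1 and Bmyc also had 0 reads in library 1. Espn, an actin-bundling protein gene, had 5.84, 1303 and 1327 normalised counts, Car9 the values above, Unc13a 14.6, 901 and 1000.2 and Cdh23 3.89, 309 and 275, with Mpp2 and Mgarp completing the 12. Farthest above were Pglyrp3 (106, 1 and 0 reads), Ccl2 (154, 2 and 1), Speer3, Serpinb2, Acoxl, Lce1g, Nts, Il20rb, Slc16a6, Gas7, Sybu and Kbtbd8. Nts, which encodes the peptide neurotensin, had 153, 0 and 5 reads, and Il20rb, a receptor chain of interleukin-20 family cytokines, 94, 3 and 2.

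Of the 82 genes at least 2-fold apart between libraries 2 and 3, 2 had a mean of at least 100. Low coding genes of several kinds were among the farthest apart, such as Cycs (96.3, 5.80 and 14.7 normalised counts) and Pkd1l1 (109, 22.2 and 8.41). A few abundant non-coding RNAs and the histones are described here. RP23-81C12.3, described above, was higher in library 2 than in library 3 by 1.47 on the log2 scale. Mir5105, as listed, had 18482, 33827 and 17764 normalised counts and Rn7sk, the 7SK RNA that restrains transcription elongation, 290, 684 and 337, both highest in library 2. The linker histone gene Hist1h1b had 54.5, 42.6 and 13.7. Replication-dependent histones, whose mRNAs mostly lack a poly(A) tail, had a median of library 2 minus 3 of 0.63 over 12 genes, 11 of which had a mean under 100. The 1 gene at or above 100 had a difference of 0.05, and the 7 without close copies a median of 0.55. Their share of the summed level was 0.0141, 0.0133 and 0.0107%. How RNA was selected for the libraries was not given in the sources used here.

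Among the autosomes and X, chromosome 13 lay farthest from 0, and it was singled out after all were seen. The 13 genes of the mitochondrial genome with a mean of at least 10 had larger medians of 0.82 and 1.05 for library 1 minus libraries 2 and 3 and 0.22 for library 2 minus 3, and Y had 1 such gene. The 457 genes of chromosome 13 had median differences of 0.25 and 0.27 for library 1 minus libraries 2 and 3, where the other autosomes and X lay between -0.16 and 0.11. Library 1 was above both others in 59.5% of these genes and below both in 35.2%, against 47.2% and 48.8% of all genes with a mean of at least 10. It was at least 2-fold above in 91 (19.9%) and at least 2-fold below in 42 (9.19%), against 11.6% and 15% of all. Both medians were positive in all 6 windows of 20 Mb from 0 to 120 Mb, from 0.09 to 0.46. The median of library 2 minus 3 lay between -0.01 and 0.03 in these windows.

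**Figure D5:**
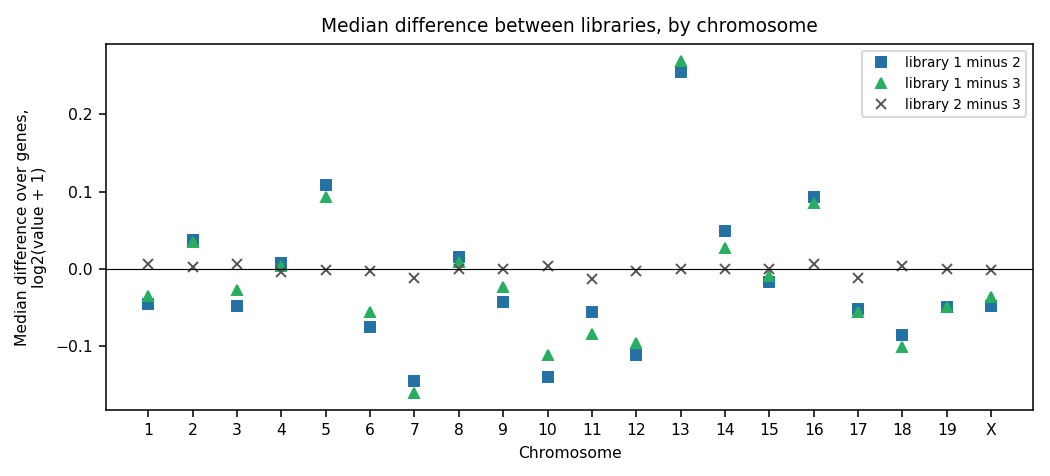
The median difference over genes with a mean value of at least 10 is shown for each chromosome on the log2(normalised count + 1) scale, for library 1 minus 2, library 1 minus 3 and library 2 minus 3. Chromosome 13 lies at 0.25 and 0.27 for library 1, and library 2 minus 3 stays near 0 on every chromosome shown; the mitochondrial genome and Y, with fewer than 20 genes, are not drawn.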

How the data were processed

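RNA from 3 vector control libraries of 4T1 cells was analysed. The tools named in the submitters' processing notes are STAR, HTSeq, SAMtools, DESeq2, cutadapt and Trim Galore, and the builds are mm9 and GRCm38; versions, order and roles are not stated. Each deposited value is a signal that the authors made by dividing a gene's read count by a factor of its library. The values show this: 100% are whole multiples, within 0.01 reads, of what 1 read is worth in the library. Strandedness is not stated, so antisense and overlapping genes cannot be told apart. Precision is limited by 27264975 to 30042957 reads per library.

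Exon lengths and coordinates came from GENCODE M21 on GRCm38 for 13249 of 13405 gene IDs; genes without a length, 0.50% to 0.62% of reads, have no level. Shared 50-base words were counted over annotated transcripts. Promoter windows came from RefSeq on GRCm38.p6 and matched 9185 symbols. Values were compared as log2(value + 1), which understates differences of low genes, for genes with a mean of at least 10 and a fold of 2. With 1 group, no test between groups was made. edgeR 4.0.16 in R 4.3.3 gave TMM factors and the common dispersion of the recovered reads, whose square root is the biological coefficient of variation. Python 3.11.15 with pandas 2.3.3, numpy 2.4.6 and scipy 1.17.1 did the rest. The calculations were tested on simulated data.

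Genes named are the 20 with the highest level; from each list the 3 highest and, where described for library 1, up to 4 farthest from both others; the 12 farthest above and 12 below with a highest value of at least 50, without predicted, clone-named or pseudogene symbols; the 5 lowest and 5 highest coefficients of variation at a mean of at least 100; and a fixed panel. Other genes named were chosen after their values were seen. The members and lists were chosen with earlier results of these data known, and 3 lists were added after the values were seen. Alternatives were other scalings, pseudocounts, filters, folds and length measures and leaving out each library. After the values were seen, averaging libraries 2 and 3 and leaving out genes with close copies or mitochondrial genes were added.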

Additional observations from a re-analysis of the deposited data

How the results depend on the processing

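Of 991 values for single genes and lists under an alternative, 942 kept their sign and moved by less than the spread between libraries. Among these are all 69 values under each alternative that left out 1 library or averaged libraries 2 and 3. Those could not fail, since such a change moves a mean of 3 libraries by less than its SD. Another 39 values kept their sign but moved by more than the spread between libraries. With the longest transcript length 18 levels and shares moved in this way, beside 51 that did not. Without genes that have close copies 12 did, beside 34 that did not, and the other 9 were list medians. A further 10 values changed sign, all list medians near 0, and the cause was not tested. Large subunit ribosomal proteins had medians of -0.137 and -0.133 against libraries 2 and 3 with a mean of at least 100, and -0.166 and -0.0864 without close copies. Small subunit ones had -0.130 and -0.125 against library 2. Nucleic acid sensing genes had 0.0463 against library 2 without close copies, and 0.0551 against library 3 without the filter on the mean or without close copies. Protease inhibitors had 0.00302 against library 3 with TMM scaling. The counts for library 1 left the range of 1.5 times only at a 4-fold threshold, with 270 genes above and 578 below both others. The small counts for libraries 2 and 3 rested on low values. For library 2, genes above both others numbered 1 with a pseudocount of 10, 42 without a filter on the mean, 1 with a mean of at least 100 and 1 at 4-fold, and genes below numbered 1, 141, 0 and 4. For library 3 these were 0, 85, 0 and 0 above and 3, 100, 1 and 2 below. Libraries 2 and 3 were at least 2-fold apart in 13, 427 and 2 genes with a pseudocount of 10, without the filter and with a mean of at least 100. Over nuclear coding genes alone the 10 highest took 5.82% and the 100 highest 18.98% of the summed level. Without genes that have close copies, an alternative added after the values were seen, large subunit ribosomal proteins took 1.05% and small subunit ones 0.642%. Leaving out 1 library gave a median coefficient of variation between 2.66% (without library 1) and 29.1%. With 1 library left out, no count of genes apart from both others can be made. No paired analysis was possible because the report makes no comparison between groups and its results come from no test. At these depths genes with a mean under 100 carry a median counting error of 17.9%.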
